A study of Mus musculus with 18 samples.

Results

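Liver messenger RNA of 35 coagulation and fibrinolysis genes was followed across 6 groups of mice. The genes were the rows of the deposited count table whose symbol is on a list of clotting factors, their cofactors and inhibitors, the plasminogen system and related plasma proteins. All 35 were found, each in 1 row, among 52636 genes. Of the 35, 34 passed the filter on low counts and were tested among 13958 genes. F13a1, the A chain of factor XIII, had 0 to 24 counts per library and was not tested.

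All mice received tamoxifen in corn oil by intraperitoneal injection (10 mg/mL) on 5 days at 8 weeks of age, and liver was taken at ZT8, which is 8 hours after lights on. The H-WT and H-KO mice carried the conditional Hnf4a allele Hnf4atm1.1Gonz and were 10 weeks old. The BH-WT and BH-KO mice carried that allele and the conditional Arntl allele Arntltm1Weit, also at 10 weeks. The BH-HF-WT and BH-HF-KO mice had the BH alleles, ate a high-fat diet for 35 weeks from the age of 10 weeks and were 45 weeks old. Every group, WT included, has a strain label with Albtm1(cre/ERT2)Mtz, Cre recombinase that tamoxifen switches on, driven from the albumin gene and so active in hepatocytes. WT and KO mice have the same strain label, and the labels do not say how the WT mice differ. Hnf4a encodes a nuclear receptor of hepatocytes, and Arntl (Bmal1) encodes an activator of the circadian clock. Each group had 3 libraries from 3 biological replicates.

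Hepatocytes make most clotting factors of the blood. A cascade of serine proteases ends in thrombin, which cuts fibrinogen into fibrin, while antithrombin, protein C and protein S restrain the cascade. Plasmin, made from plasminogen by tissue-type and urokinase-type activators, dissolves the clot, and antiplasmin inhibits plasmin. HNF4A is known to bind the promoters of several clotting factor genes in hepatocytes.

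Libraries held 6846471 to 9816124 counts. A count of 0 allows up to 3 counts, or 0.306 to 0.438 counts per 1000000 (CPM) of a library's plain total, for counting error only. Levels below are CPM after TMM scaling between libraries (factors 0.83 to 1.38). Hnf4a RNA over the whole gene checked the labels only weakly, since the deletion removes part of the gene: the H-WT libraries had 581 to 889 CPM and the H-KO libraries 556 to 658. The BH-WT libraries had 772 to 889.6 CPM, BH-KO replicate 1 had 867, and BH-KO replicates 2 and 3 had 500.2 and 495. At 45 weeks WT had 768 to 840.3 and KO 820.1 to 978. Arntl was at 17.4, 22.3 and 24.1 CPM in the 3 BH-KO libraries and at or below 2.61 in the other 15, so the libraries labelled BH-HF-KO did not show the difference seen in BH-KO. H-WT replicate 3 had the Xist and Ddx3y pattern of a female and the other 17 libraries that of males. Alb, the defining hepatocyte marker, took 6.18 to 8.48% of counts in the 9 WT libraries, 1.35 to 1.68% in H-KO, 1.79 to 3.71% in BH-KO and 2.68 to 3.72% in BH-HF-KO.

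BH-KO replicate 1 stood apart from the other BH-KO libraries for these genes, as it did for Hnf4a. Its TMM factor was 0.881, against 1.26 and 1.3 in replicates 2 and 3, while Arntl was raised in all 3. Over the 19 genes that fell in H-KO, BH-KO replicate 1 lay below all 9 WT libraries for 2, within their range for 12 and above it for 5. BH-KO replicate 2 lay below all 9 WT libraries for 17 of the 19 and replicate 3 for 18. Each H-KO library did so for all 19, which follows largely from choosing the 19 by their fall in H-KO. The median log2 difference from the WT mean over the 19 genes was 0.16 in BH-KO replicate 1, -1.65 in replicate 2 and -1.83 in replicate 3. The BH-KO contrasts of these genes that passed in either fit are therefore given with and without that library. The 2 BH-KO libraries then left are assumed to vary as the other groups do.

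**Figure D1:**
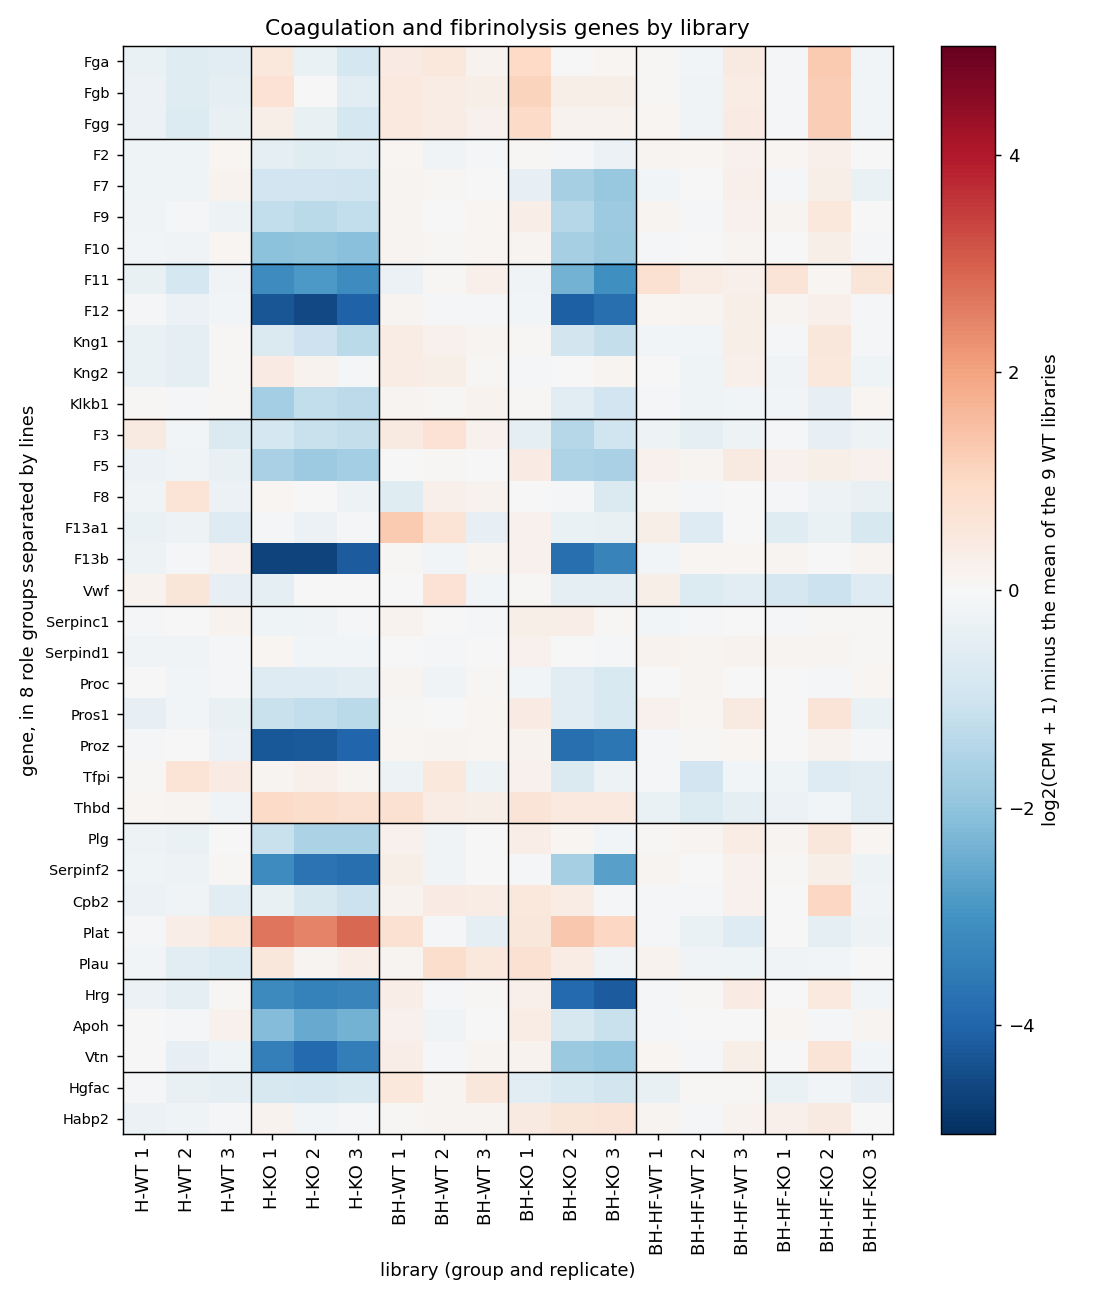
Each row is 1 of the 35 genes and each column 1 of the 18 libraries. Colour gives log2(CPM + 1) minus the mean of the 9 WT libraries, blue for lower and red for higher, and horizontal lines separate 8 groups of genes by role. The 3 H-KO columns and BH-KO replicates 2 and 3 hold the dark blue cells of F12, F13b, Proz, Serpinf2, Vtn, Hrg and F11, while BH-KO replicate 1 and the BH-HF-KO columns are near the WT colours in those rows.

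Among the 35 genes, the fibrinogen chains had the highest medians per length of exon over the 9 WT libraries, but not in H-WT alone. Scaled to CPM per kilobase of exon, the median of the 9 WT libraries was 1902 for Fga, 1644 for Fgg and 1424 for Fgb, followed by Apoh at 1402 and Vtn at 1300.0. By the mean of H-WT, Apoh was first at 1451, followed by Fga at 1281, Vtn at 1144, Fgg at 1137 and Fgb at 997. Together the 35 genes took 2.7 to 3.16% of counts in H-WT and 2.36 to 4.06% in H-KO. Without the 3 fibrinogen chains, the share was 1.85 to 2.22% in H-WT and 1.21 to 1.36% in H-KO, so the ranges no longer overlapped. Several of the genes are neighbours with no coding gene between them in GENCODE M21 (mm10): F7, F10 and Proz on chromosome 8 (13026034 to 13076026), F11 and Klkb1 on the same chromosome (45241174 to 45294859), Hrg, Kng2 and Kng1 on chromosome 16 (22951072 to 23082078), and Fgg, Fga and Fgb on chromosome 3 (83007724 to 83049863).

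In H-KO, 19 of the 34 tested genes fell, 3 rose (Plat, Plau and Thbd) and 12 did not pass the test, at an adjusted p under 0.05 in edgeR's quasi-likelihood test. Among all 13958 genes, 19.1% fell and 15.8% rose, or 2662 and 2209 genes. With upper-quartile scaling, which shifted the median of all genes by 0.15 on the log2 scale, the balance of all genes turned to 2063 that fell and 3338 that rose, and that of the 34 genes was 16 and 4. The largest falls were those of F13b, F12, Proz, Serpinf2, Vtn, Hrg and F11, with log2 fold changes of -4.53 to -2.69. The 12 that did not pass were the 3 fibrinogen chains, Serpinc1, Serpind1, Kng1, Kng2, Cpb2, Habp2, F8, Tfpi and Vwf. The median log2 fold change was -0.68 over the 34 genes and 0 over all genes tested. The 3 H-KO libraries lay below all H-WT libraries for 21 genes and above them for 3, and 51.9% of all genes tested had groups that did not overlap. In bulk liver, fewer cells of a type and less RNA per cell cannot be told apart.

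In BH-KO, 4 genes fell (F3, F7, Hgfac and Proc), 1 rose (Habp2) and 29 did not pass, against 14.3% of all genes that fell and 14.3% that rose. The BH-KO libraries lay below all BH-WT libraries for 6 genes and above for 1, and 34.9% of all genes had groups that did not overlap. Without BH-KO replicate 1, 19 of 35 genes fell and 2 rose, against 21.6% of 14415 genes that fell and 19.5% that rose, and the median log2 fold change was -0.82 against 0.02 over all genes. In those libraries 21 genes lay below BH-WT and 2 above, with 63% of all genes not overlapping. With both contrasts taken from the fit without that library, 20 genes fell in H-KO, Kng1 added to the 19, and 18 of them also fell in BH-KO, which is 90% of the H-KO list and 94.7% of the BH-KO list. Those 2 contrasts share no library, only the estimate of the spread. BH-KO replicate 1 was set aside for its levels of the genes that fell in H-KO. The overlap, and the number and size of the falls in BH-KO without that library, are therefore partly fixed by that choice. With all libraries, 4 of the 19 genes that fell in H-KO fell in BH-KO, which is 21.1%. F2 and Plg passed in H-KO and not in BH-KO, and F13a1 in BH-KO and not in H-KO, and the test of the difference between the lines is given with the interactions. F13a1, counted in the 19 of 35, passed the filter only through BH-WT replicates 1 and 2, so its call is no independent sign of a fall.

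**Figure D2:**
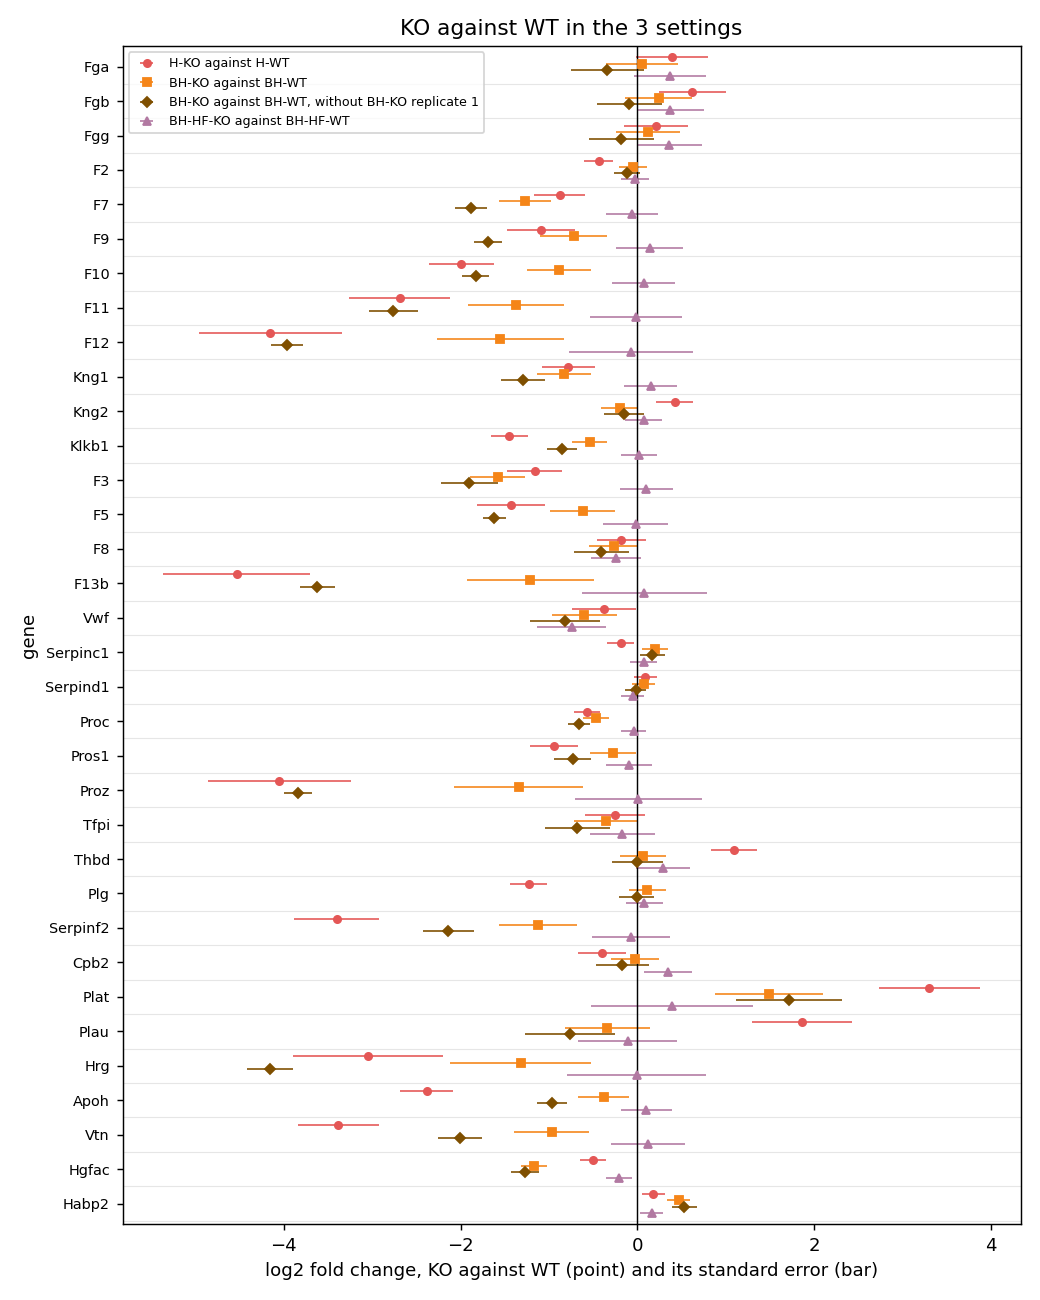
Log2 fold change of KO against WT for the 34 tested genes, with its standard error as a bar: H-KO (circles), BH-KO (squares), BH-KO without replicate 1 (diamonds) and BH-HF-KO (triangles). Circles and diamonds lie far left for F13b (-4.53 and -3.62), F12 (-4.15 and -3.96), Proz (-4.05 and -3.84) and Hrg (-3.05 and -4.15), the squares between, and the triangles near 0.

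The DNA letters before the start of some of these genes were searched for 2 short elements of the kind HNF4A is known to bind. Both were chosen after the values were known, and a match is a description of letters only. CAAAGNNCA, on either strand, was in the 300-base promoter window (250 bases before to 50 after the RefSeq start) of 7 of the 28 genes that have one in the RefSeq table: Apoh, F7, F9, Fga, Kng2, Serpinc1 and Serpind1. Of 32851 promoters of the same length, 6.36% held it. GGNCAAAG was in those of 5 (F12, F13a1, F7, Hrg and Serpinc1), against 5.62% of all, and the 2 elements can overlap, as they do in F7. The longer CAAAGTCCA was in none of the 28 and in 0.475% of all promoters. CACGTG, the E-box bound by the ARNTL and CLOCK pair, was in 1 (Tfpi), against 7.15% of all. Both genes that changed and genes that did not pass held a match. The lines show 110 bases before and 10 bases from the RefSeq start, 5′ to 3′ on the gene's strand, from RefSeq on GRCm38.p6, with matches of either element in capitals. The first 5 belong to genes that fell in H-KO, and the last 2 to genes that did not pass there. Kng2 and Serpind1, which did not pass either, also held a match and are not shown. F13b, Proz, Serpinf2, Vtn and F11, among the largest falls, held neither element.
F12 (chr13:55426795-55426914, minus strand): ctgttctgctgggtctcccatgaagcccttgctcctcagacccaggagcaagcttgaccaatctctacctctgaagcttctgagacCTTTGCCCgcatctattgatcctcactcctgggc
Hrg (chr16:22950962-22951081, plus strand): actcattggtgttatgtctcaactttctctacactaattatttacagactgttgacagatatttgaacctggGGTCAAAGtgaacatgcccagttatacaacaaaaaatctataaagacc
F7 (chr8:13025924-13026043, plus strand): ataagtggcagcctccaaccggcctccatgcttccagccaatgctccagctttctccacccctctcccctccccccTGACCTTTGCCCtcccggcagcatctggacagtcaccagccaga
F9 (chrX:59999354-59999473, plus strand): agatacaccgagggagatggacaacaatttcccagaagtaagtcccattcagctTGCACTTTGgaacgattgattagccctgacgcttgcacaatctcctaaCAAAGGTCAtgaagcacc
Apoh (chr11:108395187-108395306, plus strand): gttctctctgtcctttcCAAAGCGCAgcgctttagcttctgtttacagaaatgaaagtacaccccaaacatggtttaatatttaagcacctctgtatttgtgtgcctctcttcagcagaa
Serpinc1 (chr1:160978473-160978592, plus strand): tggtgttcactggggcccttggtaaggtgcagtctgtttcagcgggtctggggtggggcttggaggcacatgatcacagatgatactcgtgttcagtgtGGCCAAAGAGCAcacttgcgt
Fga (chr3:83026043-83026162, plus strand): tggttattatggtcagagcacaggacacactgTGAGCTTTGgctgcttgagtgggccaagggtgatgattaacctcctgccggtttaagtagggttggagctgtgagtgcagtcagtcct
In these windows the match of F12 lies 24 to 17 bases before the start, that of Hrg 38 to 31, and that of Apoh 93 to 85. F7 holds CAAAGNNCA at 34 to 26 and GGNCAAAG at 30 to 23 bases before the start. F9 holds 2 matches, at 56 to 48 bases before the start and from 8 bases before the start to its first base.

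The fibrinogen chains, which form the precursor of fibrin, did not pass in any KO comparison. Fga, the alpha chain, was at 4281, 3540.2 and 3746 CPM in H-WT and 7912, 4330.2 and 2932 in H-KO. It was at 7268, 7768 and 6208 CPM in BH-WT and 10856, 5404 and 5771 in BH-KO. In BH-HF-WT the libraries gave 5724, 4943 and 7534 CPM, and in BH-HF-KO 5171, 13469 and 4933. In H-KO 2 libraries were above all H-WT libraries and 1 was below them, while in BH-KO and BH-HF-KO 1 library was above all WT libraries of its line and the others were not, so the groups overlapped. The log2 fold changes of Fga were 0.39 ± 0.41 (SE, adjusted p = 0.501) in H-KO, 0.05 ± 0.41 (adjusted p = 0.936) in BH-KO and 0.37 ± 0.41 (adjusted p = 1) in BH-HF-KO. The 3 chains moved together from library to library: the ratio of Fgb to Fga CPM was 0.881 to 1.23 and that of Fgg to Fga 0.505 to 0.683 over the 18 libraries, while Fga itself ranged from 2932 to 13469. The ratio of Fgb to Fga was 0.966 to 0.996 in H-WT and 1.09 to 1.23 in H-KO, without overlap. Those 3 genes lie side by side on chromosome 3.

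**Figure D3:**
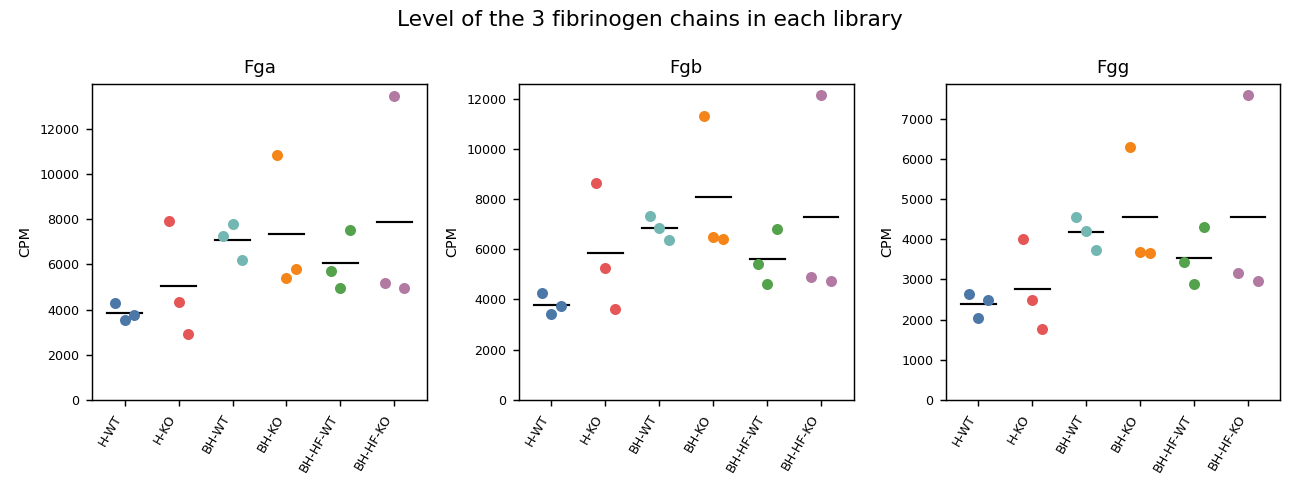
CPM of Fga, Fgb and Fgg (linear axes from 0) in each library of the 6 groups, replicates 1 to 3 from left to right, with the group mean as a line. The 3 panels share their high libraries, H-KO replicate 1, BH-KO replicate 1 and BH-HF-KO replicate 2, which has 13469 CPM of Fga.

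All 4 vitamin K-dependent procoagulant proteases fell in H-KO. F10, the factor X that forms the prothrombin-cleaving enzyme, was at 496, 483 and 588 CPM in H-WT and 133, 134 and 128 in H-KO. BH-WT had 597, 565 and 584 CPM and BH-KO 612, 175 and 153, and the 6 BH-HF libraries had 512 to 674. All H-KO libraries and BH-KO replicates 2 and 3 were low, and BH-KO replicate 1 was above BH-WT. The fall was -1.99 ± 0.37 in H-KO (adjusted p = 0.000917), and in BH-KO the values were -0.89 ± 0.36 (adjusted p = 0.0757) with and -1.83 ± 0.15 (adjusted p = 7.38e-08) without replicate 1. F7, the factor VII that starts the cascade with tissue factor, was at 108, 108 and 142 CPM in H-WT and 65.7, 65.7 and 62.9 in H-KO, and at 141, 132 and 128 in BH-WT and 94.8, 39.8 and 33.1 in BH-KO. All KO libraries of both lines were below their WT libraries. F7 fell in H-KO (-0.88 ± 0.29, adjusted p = 0.0288) and in BH-KO (-1.27 ± 0.29, adjusted p = 0.00622, and -1.88 ± 0.18, adjusted p = 8.01e-07 without replicate 1), though not in BH-KO with the compared groups fitted alone (adjusted p = 0.0959). F9, encoding factor IX, had a mean of 259.8 ± 12.2 CPM (SD, n = 3) in H-WT and 122 ± 5.06 in H-KO, where it fell (-1.09 ± 0.38, adjusted p = 0.0372). In BH-KO it gave -0.72 ± 0.38 (adjusted p = 0.163) with and -1.69 ± 0.16 (adjusted p = 5.64e-07) without replicate 1. F2, encoding prothrombin, changed least of the 4: its mean was 1656 ± 216 CPM in H-WT and 1221 ± 61.2 in H-KO (-0.44 ± 0.16, adjusted p = 0.0426), and 1715 ± 173 in BH-WT and 1662 ± 190.2 in BH-KO (-0.05 ± 0.16, adjusted p = 0.852; without replicate 1 -0.12 ± 0.15, adjusted p = 0.555). In H-KO, F2 and F7 did not pass without H-WT replicate 3 or without any 1 H-KO library, nor F9 without any 1 library of either group. Without a filter none of the 3 passed, F2 and F9 did not with upper-quartile scaling, nor F2 with a replicate block, with adjusted p up to 0.158 for F2, 0.103 for F7 and 0.122 for F9 over the alternatives.

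In the contact and intrinsic pathway, F12, F11 and Klkb1 fell in H-KO. F12, factor XII, the protease that starts contact activation, was at 424, 367 and 409.7 CPM in H-WT and 22.2, 18.7 and 26.5 in H-KO. It was at 501, 429.8 and 436 CPM in BH-WT and 409.8, 26.2 and 32.5 in BH-KO, with 433 to 558 in the BH-HF libraries. The H-KO libraries and BH-KO replicates 2 and 3 were far below every WT library, and BH-KO replicate 1 was just below BH-WT. F12 fell by 4.15 on the log2 scale in H-KO (SE 0.81, adjusted p = 0.00148), and its value in BH-KO was -1.55 ± 0.72 (adjusted p = 0.122) with and -3.96 ± 0.18 (adjusted p = 2.84e-10) without replicate 1. For F12, F13b, Proz and Hrg, DESeq2 set the p aside and gave no adjusted p, so that tool has no call for them. F11, encoding factor XI, was at 89.5, 62.5 and 101 CPM in H-WT and 12, 14.9 and 12.2 in H-KO, and at 93.3, 119 and 138 in BH-WT and 103, 21.7 and 12.9 in BH-KO. Here too BH-KO replicate 1 lay inside the BH-WT range. The fall of F11 in H-KO was -2.69 ± 0.57 (adjusted p = 0.00266), and BH-KO gave -1.37 ± 0.54 (adjusted p = 0.0718) with and -2.76 ± 0.28 (adjusted p = 2.69e-06) without replicate 1. Klkb1, plasma prekallikrein, was at 353, 327 and 348 CPM in H-WT and 102, 141 and 134 in H-KO (-1.45 ± 0.21, adjusted p = 0.000126), and at 370.3, 354 and 379 in BH-WT and 352, 236 and 172 in BH-KO (-0.54 ± 0.2, adjusted p = 0.0583). Without replicate 1 Klkb1 fell in BH-KO (-0.85 ± 0.17, adjusted p = 0.000787), and with that library DESeq2 and limma-voom also called it, the adjusted p ranging from 0.000787 to 0.241 over the alternatives. All KO libraries of both lines were below their WT libraries, BH-KO replicate 1 by little. Klkb1 shares 2267 exon bases on its own strand with Gm45753, so its counts are uncertain. Kng1, a kininogen, was at 2437 ± 510.0 CPM in H-WT and 1419.6 ± 301 in H-KO (adjusted p = 0.056; adjusted p = 0.00864 with BH-KO replicate 1 left out of the fit), and BH-KO gave -0.83 ± 0.3 (adjusted p = 0.0505) with and -1.29 ± 0.25 (adjusted p = 0.000754) without replicate 1. Its near-identical paralog Kng2 was at 334 ± 67 CPM in H-WT and 446 ± 72.3 in H-KO (0.42 ± 0.21, adjusted p = 0.135), and reads of the pair may have been split between them.

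**Figure D4:**
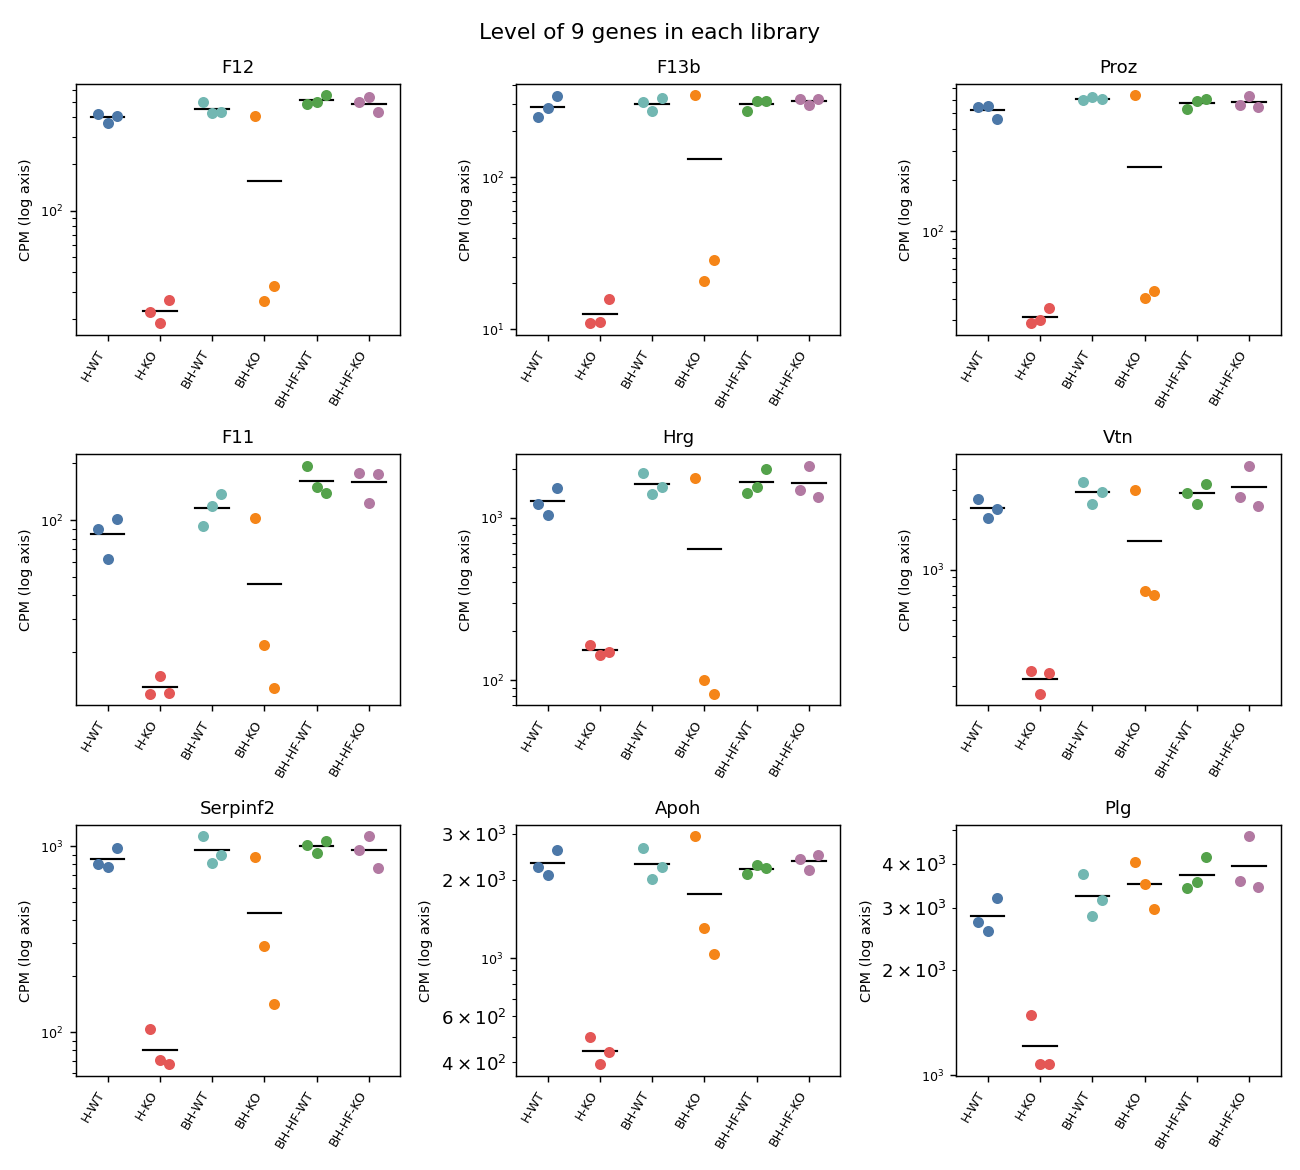
CPM (log axes) of F12, F13b, Proz, F11, Hrg, Vtn, Serpinf2, Apoh and Plg in each library, replicates 1 to 3 from left to right, with the group mean as a line. In 8 panels the H-KO libraries and BH-KO replicates 2 and 3 lie below the WT libraries and BH-KO replicate 1 does not, except that F12 in it is below BH-WT, and in the Plg panel only the H-KO libraries are low (1485, 1073 and 1078 CPM).

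Of the cofactors, tissue factor and factor XIII, F13b, F5 and F3 fell in H-KO, and F8 and Vwf did not pass. F13b, the carrier B chain of factor XIII, was at 247, 283 and 341 CPM in H-WT and 10.9, 11.1 and 15.7 in H-KO. It was at 311, 271 and 329 CPM in BH-WT and 346, 20.7 and 28.7 in BH-KO, and at 273 to 328 in the BH-HF libraries. The fall in H-KO was the largest of the 34 genes, -4.53 ± 0.83 (adjusted p = 0.00107), and BH-KO gave -1.21 ± 0.72 (adjusted p = 0.223) with and -3.62 ± 0.2 (adjusted p = 1.63e-09) without replicate 1. F5, the cofactor of factor X, was at 763, 827 and 716 CPM in H-WT and 302, 267 and 289 in H-KO, and at 935, 979 and 954 in BH-WT and 1247, 318 and 304 in BH-KO. Replicate 1 of BH-KO was thus the highest of the BH libraries at 10 weeks. F5 fell in H-KO by 1.43 on the log2 scale (SE 0.38, adjusted p = 0.00874), and BH-KO gave -0.62 ± 0.37 (adjusted p = 0.224) with and -1.62 ± 0.13 (adjusted p = 9.81e-08) without replicate 1. F3, tissue factor, was low throughout: 14.2, 8.89 and 5.6 CPM in H-WT, 4.92, 4.11 and 3.8 in H-KO, 14.2, 17.4 and 11.7 in BH-WT, and 6.98, 3.14 and 4.58 in BH-KO. Its 3 BH-KO libraries were all below BH-WT, replicate 1 included. F3 fell in H-KO (-1.16 ± 0.31, adjusted p = 0.00868; adjusted p = 0.0633 without H-WT replicate 1) and in BH-KO (-1.58 ± 0.31, adjusted p = 0.00179, and -1.9 ± 0.32, adjusted p = 0.000202 without replicate 1). F8 (factor VIII) and Vwf (its carrier), both known from endothelial cells, had log2 fold changes of -0.18 and -0.38 in H-KO and -0.27 and -0.6 in BH-KO (-0.41 and -0.82 without replicate 1), none of which passed. The 15 liver endothelium markers, none of which was at 0 throughout, summed to 283 to 469.6 CPM in H-WT and 247 to 283 in H-KO. In H-KO 0 of 15 passed, against 34.9% of all genes. The endothelium markers summed to 177 to 368 CPM in BH-WT and 179 to 203 in BH-KO. There 3 of 15 fell, against 14.3% of all genes, with a median of -0.58 over the list. Their part in the F8 and Vwf values was not tested. F13a1 was at 3.37, 1.84 and 0.32 CPM in BH-WT and 1.04, 0.38 and 0.353 in BH-KO. It entered the test only where BH-KO replicate 1 was left out, through BH-WT replicates 1 and 2, which held 24 and 15 counts. There it gave -2.31 ± 0.85 (adjusted p = 0.0405). Because the filter admitted F13a1 only through the WT libraries where it was high, this value is no independent sign of a fall. BH-WT replicate 3 was below all BH-KO libraries. Factor XIII A is known from macrophages, and the 11 macrophage markers summed to 198, 728 and 1254 CPM at the lowest, the median and the highest in BH-WT and 55.8, 75.8 and 162 in BH-KO. In BH-WT the lowest sum was that of replicate 1, which had the most F13a1. The median sum was that of replicate 3, which had the least F13a1, and the highest that of replicate 2. None of the 11 was at 0 throughout, 9 of the 11 fell in BH-KO, against 14.3% of all genes, and their part in the F13a1 value was not tested.

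Among the anticoagulants, Proz, Pros1 and Proc fell in H-KO, Thbd rose, and the serpins Serpinc1 (antithrombin) and Serpind1 (heparin cofactor II) did not pass. Proz, protein Z, the cofactor of a factor X inhibitor, was at 543, 553 and 460.4 CPM in H-WT and 28.6, 29.8 and 35.5 in H-KO. It was at 597, 618 and 608 CPM in BH-WT, 638, 40.5 and 44.6 in BH-KO, and 525 to 634 in the BH-HF libraries. The same 5 KO libraries as for F12 were low. Proz fell by 4.05 on the log2 scale in H-KO (SE 0.81, adjusted p = 0.00185), and its BH-KO value was -1.34 ± 0.73 (adjusted p = 0.182) with and -3.84 ± 0.16 (adjusted p = 6.97e-11) without replicate 1. Its gene is the neighbour of F10 and F7, which fell by 1.99 and 0.88. Pros1, protein S, fell in H-KO from 94.6 ± 9.51 to 49.4 ± 4.14 CPM (SD, n = 3; log2 fold change -0.94 ± 0.27, adjusted p = 0.0135; adjusted p = 0.0501 without H-KO replicate 3), and BH-KO gave -0.28 ± 0.26 (adjusted p = 0.451) with and -0.73 ± 0.21 (adjusted p = 0.0117) without replicate 1. Proc, protein C, fell in H-KO from 450.0 ± 22.1 to 303 ± 10.5 CPM (-0.57 ± 0.15, adjusted p = 0.00652) and in BH-KO from 467 ± 49.5 to 336 ± 74.1 CPM (-0.47 ± 0.15, adjusted p = 0.0242), the latter with adjusted p up to 0.191 when BH-WT replicate 1 or 3 or BH-KO replicate 2 or 3 was left out or the compared groups were fitted alone. Proc gave -0.66 ± 0.12 without BH-KO replicate 1 (adjusted p = 0.000487). Serpinc1 was at 2081 ± 212 CPM in H-WT and 1827 ± 67.5 in H-KO (-0.19 ± 0.15, adjusted p = 0.375), and Serpind1 at 602 ± 32.6 and 638 ± 58.9 CPM (0.09 ± 0.13, adjusted p = 0.651). Serpinc1 shares 2942 exon bases with Zbtb37 on the other strand, and the strand setting of the counts is not given. Thbd, the thrombin receptor that turns thrombin to protein C activation, was at 2.26, 2.35 and 1.68 CPM in H-WT and 4.82, 4.54 and 4.09 in H-KO (1.09 ± 0.26, adjusted p = 0.00496). In BH-WT it was at 4.07, 2.94 and 2.72 CPM and in BH-KO at 3.71, 3.23 and 3.26. All H-KO libraries were above H-WT, on 12 to 19 counts in H-WT and 42 to 48 in H-KO. Tfpi, the inhibitor of tissue factor, was at 6.59 ± 1.55 CPM in H-WT and 5.54 ± 0.26 in H-KO (adjusted p = 0.611).

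In the plasminogen system, the activators Plat and Plau rose in H-KO, and Plg and Serpinf2 fell. Plg, plasminogen, was at 2740.0, 2567 and 3207 CPM in H-WT and 1485, 1073 and 1078 in H-KO. It was at 3750.4, 2841 and 3155 CPM in BH-WT and 4051, 3497 and 2975 in BH-KO, and at 3409 to 4800.2 in the BH-HF libraries. Only the H-KO libraries were below the WT ones. Plg fell in H-KO (-1.23 ± 0.21, adjusted p = 0.00054), and BH-KO gave 0.11 ± 0.21 (adjusted p = 0.72) with and -0.01 ± 0.2 (adjusted p = 0.983) without replicate 1. Serpinf2, the antiplasmin that inhibits plasmin, was at 804, 769 and 975 CPM in H-WT and 104, 70.5 and 67 in H-KO, and at 1131, 816 and 903 in BH-WT and 880.3, 289 and 142 in BH-KO. The 2 low BH-KO libraries lay above all H-KO libraries. Serpinf2 fell by 3.40 on the log2 scale in H-KO (SE 0.48, adjusted p = 0.000132), and BH-KO gave -1.12 ± 0.44 (adjusted p = 0.0688) with and -2.14 ± 0.29 (adjusted p = 2.37e-05) without replicate 1. Plat, tissue-type plasminogen activator, was at 0.532, 0.988 and 1.26 CPM in H-WT and 9.13, 7.89 and 10.6 in H-KO, which is 4 to 9 counts against 73 to 109. It was at 1.68, 0.49 and 0.16 CPM in BH-WT and 1.34, 3.04 and 2.2 in BH-KO, where the groups overlapped. Plat rose in H-KO by a log2 fold change of 3.3 ± 0.57 (adjusted p = 0.000535), and BH-KO gave 1.49 ± 0.61 (adjusted p = 0.0783) with and 1.71 ± 0.6 (adjusted p = 0.0322) without replicate 1. Plau, urokinase, rose in H-KO from 0.351 ± 0.277 to 1.32 ± 0.369 CPM (1.86 ± 0.57, adjusted p = 0.0196), which rests on 1 to 5 counts per library in H-WT and 9 to 17 in H-KO and was lost without H-WT replicate 2 or 3 or H-KO replicate 1 (adjusted p up to 0.0819). The BH-WT libraries, at 0.982 to 2.33 CPM, were at the H-KO level of Plau. Cpb2, a carboxypeptidase that slows clot lysis, was at 333 ± 42.8 CPM in H-WT and 253 ± 65.2 in H-KO (-0.4 ± 0.27, adjusted p = 0.28).

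All 3 plasma binding proteins fell in H-KO. Hrg, histidine-rich glycoprotein, which binds heparin and plasminogen, was at 1222, 1046 and 1529.5 CPM in H-WT and 164, 143 and 149.9 in H-KO. It was at 1878, 1400.2 and 1554 CPM in BH-WT and 1755, 99.5 and 82.1 in BH-KO, so BH-KO replicates 2 and 3 were below even the H-KO libraries. Hrg fell in H-KO (-3.05 ± 0.85, adjusted p = 0.0131), and BH-KO gave -1.32 ± 0.8 (adjusted p = 0.229) with and -4.15 ± 0.26 (adjusted p = 5.69e-09) without replicate 1. Vtn, vitronectin, which stabilises the plasminogen activator inhibitor, was at 2639, 2023 and 2304 CPM in H-WT and 246, 180.0 and 242 in H-KO, and at 3332, 2457 and 2896 in BH-WT and 2985, 742 and 701 in BH-KO. For Vtn the 2 low BH-KO libraries were above all H-KO libraries. Vtn fell in H-KO (-3.38 ± 0.46, adjusted p = 9.37e-05), and BH-KO gave -0.97 ± 0.42 (adjusted p = 0.0955) with and -2.01 ± 0.25 (adjusted p = 9.69e-06) without replicate 1. Apoh, the phospholipid-binding beta-2-glycoprotein I, was at 2240.5, 2089.6 and 2609 CPM in H-WT and 500.0, 393 and 437 in H-KO, and at 2638, 2017 and 2234 in BH-WT and 2940.4, 1305 and 1039.8 in BH-KO. BH-KO replicate 1 was the highest of those 12 libraries. Apoh fell in H-KO (-2.38 ± 0.3, adjusted p = 5.02e-05), and BH-KO gave -0.38 ± 0.29 (adjusted p = 0.327) with and -0.97 ± 0.17 (adjusted p = 0.00031) without replicate 1. Hrg lies beside Kng2 and Kng1 on chromosome 16, which did not pass in H-KO.

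Hgfac, the activator of hepatocyte growth factor, and Habp2, the protease grouped with it, moved apart in BH-KO, where Hgfac fell and Habp2 rose. Hgfac was at 195, 164 and 148 CPM in H-WT and 122, 115 and 123 in H-KO, and at 305, 234 and 311 in BH-WT and 141, 125 and 111 in BH-KO. All KO libraries of both lines were below their WT libraries, BH-KO replicate 1 included. Hgfac fell in H-KO (-0.5 ± 0.15, adjusted p = 0.0188; adjusted p up to 0.0856 without H-WT replicate 1 or H-KO replicate 2) and in BH-KO (-1.17 ± 0.15, adjusted p = 8.88e-05), the latter under each of 14 alternatives (-1.27 ± 0.16 without replicate 1, adjusted p = 1.67e-05). Habp2, which activates factor VII and urokinase, was at 159 ± 13.4 CPM in H-WT and 180.2 ± 22 in H-KO (adjusted p = 0.308). It rose from 197 ± 6.17 in BH-WT to 273 ± 19.4 in BH-KO (0.47 ± 0.13, adjusted p = 0.0142, and up to 0.0763 without BH-KO replicate 3 or with the compared groups fitted alone). Habp2 gave 0.53 ± 0.14 without BH-KO replicate 1 (adjusted p = 0.00554).

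**Figure D5:**
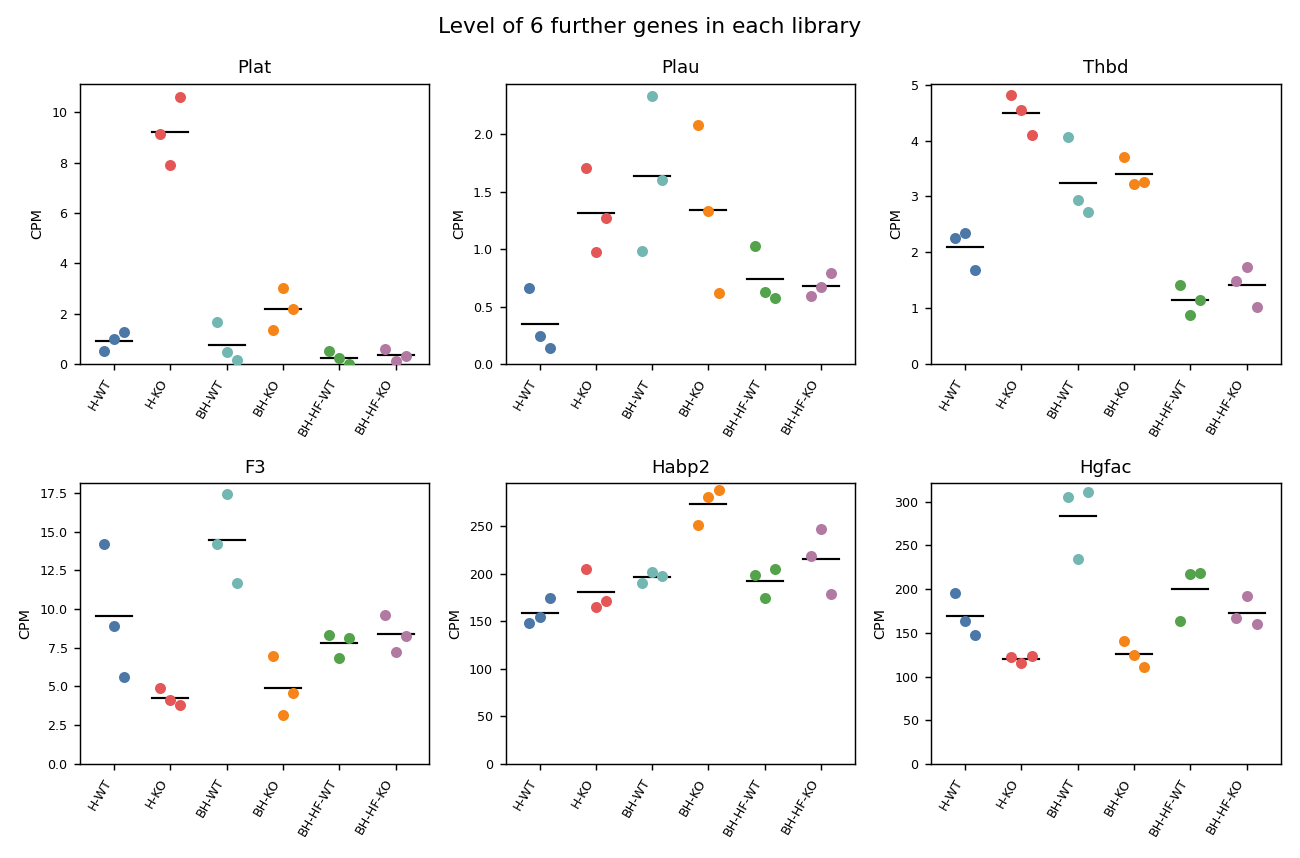
CPM (linear axes from 0) of Plat, Plau, Thbd, F3, Habp2 and Hgfac in each library, replicates 1 to 3 from left to right, with the group mean as a line. Plat is at 7.89 to 10.6 CPM in H-KO and at or below 3.04 elsewhere, F3 and Hgfac are lower in KO than in WT in both lines at 10 weeks, and Thbd is at 0.874 to 1.41 CPM in BH-HF-WT.

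The difference between the KO effects of the 2 lines at 10 weeks was tested as an interaction. It passed for 4 of 34 genes, against 6.06% of all genes tested, and all 4 fell more in H-KO than in BH-KO. The differences, BH minus H, were 2.41 ± 0.6 for Vtn (adjusted p = 0.0294), 2.28 ± 0.62 for Serpinf2 (adjusted p = 0.0436), 2 ± 0.41 for Apoh (adjusted p = 0.0118) and 1.34 ± 0.3 for Plg (adjusted p = 0.0181). Without BH-KO replicate 1, 9 of 35 passed, against 8.65% of 14415 genes. Those 4 were again among them, at 1.38 ± 0.3 for Vtn (adjusted p = 0.0125), 1.26 ± 0.35 for Serpinf2 (adjusted p = 0.0374), 1.42 ± 0.22 for Apoh (adjusted p = 0.00149) and 1.23 ± 0.27 for Plg (adjusted p = 0.0122), and F13b also fell more in H-KO (0.91 ± 0.24, adjusted p = 0.0291). The other 4 were lower in the BH contrast: Hrg (-1.09 ± 0.29, adjusted p = 0.032), F7 (-0.99 ± 0.23, adjusted p = 0.017), Hgfac (-0.77 ± 0.21, adjusted p = 0.0371) and Plau (-2.62 ± 0.75, adjusted p = 0.0422). Mean Hgfac was near in the KO groups, at 119.8 CPM in H-KO and 126 in BH-KO with all libraries, and differed in WT, at 169 in H-WT and 283 in BH-WT. For F2, Kng1 and F13a1 the difference did not pass without that library (adjusted p = 0.329, 0.351 and 0.128). F12 and Proz, which fell most beside F13b, gave 0.2 ± 0.21 (adjusted p = 0.586) and 0.22 ± 0.18 (adjusted p = 0.47) without it. The differences without BH-KO replicate 1 depend in part on the choice to set it aside for its levels of these genes.

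At 45 weeks after high-fat diet, none of the 34 genes passed between the libraries labelled BH-HF-KO and BH-HF-WT in edgeR, and 0% of all genes tested did. DESeq2 and limma-voom also called 0, and at an unadjusted p under 0.05 there were 0 of the 34 and 490 of all genes. For F12, the 3 BH-HF-KO libraries gave 503, 539 and 433 CPM and the BH-HF-WT libraries 485, 506 and 558 (-0.07 ± 0.7), and for Hrg they gave 1482, 2102 and 1349 against 1433, 1558 and 1989 (-0.01 ± 0.79). These standard errors take their spread from all 6 groups, BH-KO included. Serpind1 and F8 were the 2 genes whose BH-HF-KO libraries lay below all BH-HF-WT libraries, against 10.4% of all genes not overlapping in either direction. BH-HF-KO replicate 2 was above all 9 WT libraries for 10 of the 19 genes that fell in H-KO, with a median log2 difference of 0.26, and was the highest library for the fibrinogen chains. The KO effect of BH-HF differed from that of BH for F3 (1.68 ± 0.43, adjusted p = 0.0314) and Hgfac (0.96 ± 0.21, adjusted p = 0.0163), against 6.1% of all genes. Without BH-KO replicate 1 it differed for 17 of 35, all with a positive difference, against 21.1% of all genes. The largest were 4.14 ± 0.31 for Hrg, 3.89 ± 0.22 for F12, 3.85 ± 0.19 for Proz and 3.69 ± 0.25 for F13b. Since BH-KO replicate 1 was set aside for its levels of genes that fell in H-KO, this count and these differences are partly fixed by that choice.

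The WT groups were compared last. Between BH-WT and H-WT, 0 of the 34 genes passed in edgeR, against 0.165% of all genes, with 8 of the 34 and 1301 of all genes at an unadjusted p under 0.05. Hgfac had the smallest adjusted p (0.75 ± 0.15, adjusted p = 0.0636), and DESeq2, the fit without a filter and the fit without BH-KO replicate 1 each called 1. All 3 BH-WT libraries were above all H-WT libraries for 15 genes and below for 0, against 14.7% of all genes not overlapping in either direction, the fibrinogen chains among the 15 with log2 differences of 0.81 to 0.88. Between BH-HF-WT and BH-WT, which differ in age and diet together so that the 2 cannot be told apart, 1 of the 34 passed, against 7% of all genes. That was Thbd, at 4.07, 2.94 and 2.72 CPM in BH-WT and 1.41, 0.874 and 1.15 in BH-HF-WT, a fall of -1.49 ± 0.29 (adjusted p = 0.00923; adjusted p = 0.0515 without BH-HF-WT replicate 2). The libraries did not overlap, at 17 to 29 counts against 7 to 11. The liver endothelium markers, the cells Thbd is known from, summed to 177 to 368 CPM in BH-WT and 148 to 213 in BH-HF-WT, with 0 of 15 passing, and their part in the Thbd value was not tested.

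Genes that modify or secrete clotting factors were read beside the factors. For the counts below, 19.1% of all genes tested fell and 15.8% rose in H-KO, and 14.3% fell and 14.3% rose in BH-KO. Without BH-KO replicate 1, 21.6% fell and 19.5% rose in BH-KO. Of 7 genes of the vitamin K cycle and of secretion, Vkorc1 (-1.05 ± 0.36, adjusted p = 0.031), the reductase that warfarin blocks, and Vkorc1l1 (-0.39 ± 0.1, adjusted p = 0.00918), its relative, fell in H-KO, 5 did not pass, and the median was 0.01. In BH-KO, Furin, which trims the propeptides of factors, fell from 226 ± 19.9 to 137 ± 7.59 CPM (-0.72 ± 0.1, adjusted p = 0.000148), as did Lman1, the cargo receptor of factors V and VIII (-0.57 ± 0.16, adjusted p = 0.0169), and Vkorc1l1 (-0.39 ± 0.1, adjusted p = 0.0127). Without BH-KO replicate 1 these were -0.69 ± 0.11 for Furin (adjusted p = 9.18e-05), -0.83 ± 0.12 for Lman1 (adjusted p = 6.82e-05) and -0.44 ± 0.11 for Vkorc1l1 (adjusted p = 0.00586). Ggcx, the vitamin K-dependent carboxylase, was at 78.2 ± 12.1 CPM in H-WT and 86 ± 6.79 in H-KO (adjusted p = 0.475). Of 29 other regulators and receptors, 24 were tested, of which 8 fell and 3 rose in H-KO (median -0.46), and 5 fell and 1 rose in BH-KO (median -0.81). Without BH-KO replicate 1, 16 of 25 fell and 2 rose. Tfpi2, a relative of the tissue factor inhibitor, was at 53.7, 59 and 53.8 CPM in H-WT and 2.41, 2.38 and 3.22 in H-KO (-4.37 ± 0.82, adjusted p = 0.00117), and at 40.3, 45.5 and 49.7 in BH-WT and 64.9, 5.33 and 4.67 in BH-KO. It had the same low libraries as F12. Anxa2, a cell-surface receptor of plasminogen and its activator, rose in H-KO from 10.6 ± 1.87 to 40.5 ± 8.97 CPM (1.94 ± 0.43, adjusted p = 0.00339) and in BH-KO from 19.5 ± 10.3 to 48.9 ± 22.1 (1.32 ± 0.41, adjusted p = 0.0288, and 1.62 ± 0.39, adjusted p = 0.00468 without replicate 1). S100a10, on the same list, went the other way, at 59.7, 56.4 and 75.1 CPM in H-WT and 16, 12.4 and 13.9 in H-KO. It was at 45, 53.9 and 64.4 CPM in BH-WT and 57.2, 8.65 and 16.1 in BH-KO. Plaur, the urokinase receptor, rose in H-KO from 0.221 ± 0.154 to 1.41 ± 0.469 CPM (2.61 ± 0.71, adjusted p = 0.00942), all levels near the floor. Serpina5, the protein C inhibitor, was at 0.123 to 2.13 CPM in H-WT and at 0 in the 3 H-KO libraries.

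Marker lists of other liver cells were read beside these values. Of all genes tested, 19.1% fell and 15.8% rose in H-KO, and 14.3% fell and 14.3% rose in BH-KO. The 9 hepatocyte markers found summed to 101993 to 110203 CPM in H-WT and 26439 to 31418 in H-KO, with 6 of 9 lower, and to 101806 to 130204 in BH-WT and 35253 to 80912 in BH-KO, with 3 of 9 lower and 1 higher. In BH-HF-WT they summed to 112667 to 135749 CPM and in BH-HF-KO to 70310.0 to 81966, with 0 of 9 passing. Alb, whose gene carries the Cre allele, made most of each sum in the WT libraries but not in all KO libraries. In H-KO it was at 12768, 11858 and 9848 CPM, less than the other markers together. The other 8 summed to 26027 to 30372 CPM in H-WT and 15036 to 18650.2 in H-KO, to 24619 to 32528 in BH-WT and 21446 to 38697 in BH-KO, and, at 45 weeks, to 40755 to 44883 in WT and 37326 to 40570.2 in KO. Apoa1, Ahsg and Cps1 did not pass in H-KO. The 7 bile duct markers summed to 49.6 to 74.1 CPM in H-WT and 136 to 201 in H-KO, with 4 of the 6 tested higher and Sox9 rising by 3.6 ± 0.47, and to 55 to 96.6 in BH-WT and 134 to 378 in BH-KO, with 3 of 6 higher. From BH-WT to BH-KO, mean Spp1 went from 35.1 to 184 CPM and mean Sox9 from 3.63 to 50.4. The means of Krt7 (3.58 to 1.19), Krt19 (9.03 to 3.16) and Epcam (2.35 to 1.1) went down, and the list median was -0.06. Without BH-KO replicate 1, 3 of 6 rose and 2 fell, against 19.5% and 21.6% of all genes. The 10 stellate cell markers summed to 359 to 429.8 CPM in H-WT and 281 to 308 in H-KO, with 2 of 10 lower, and to 333 to 524 in BH-WT and 242 to 453 in BH-KO, with 3 of 10 lower. The 8 platelet and megakaryocyte markers summed to 5.93 to 6.72 CPM in H-WT and 6.81 to 8.87 in H-KO, with 0 of the 4 tested passing, and to 8 to 20.5 in BH-WT and 4.01 to 7.58 in BH-KO, with 1 of 4 lower. None of these markers was at 0 in all libraries, and their part in the values of the coagulation genes was not tested.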

How the data were processed

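Total liver RNA extracted with Trizol was sequenced as Illumina libraries, 3 biological replicates in each of 6 groups, per the labels' protocols. The deposited values are counts per gene, which the authors made after alignment with STAR 2.6 to mm10, per the submitters' processing notes. Not given in the sources used here are the counter, annotation, strand setting and treatment of multiply mapped reads. Depth and the floor that a count of 0 allows are in the report, and intervals and floors cover counting error only.

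From the counts, edgeR 4.0.16 (R 4.3.3) fitted a robust quasi-likelihood model with 1 mean per group over all 18 libraries (12 residual degrees of freedom), TMM factors and filterByExpr (minimum count 10). 7 comparisons were tested: 3 of KO against WT, 2 interactions and 2 between WT groups. P-values were adjusted by Benjamini-Hochberg over all genes tested, with a threshold of 0.05. Fold changes are given with their SE. Alternatives were DESeq2 1.42.0, limma-voom (limma 3.58.1), other scaling factors and filters, the compared groups alone, a replicate block and each library left out. The fit without BH-KO replicate 1 in comparisons of other groups was added after seeing the data.

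The 35 genes, the other lists and the tests were chosen with earlier results of these data known. Values in every library are printed for genes past the threshold with an absolute log2 fold change of at least 1 and at least 5 CPM in 1 group, up to 12 of the largest, and for 1 gene of each role group. 1 of 10 hepatocyte markers, Tf, was not analysed here. Same-numbered replicates of KO and WT did not deviate together (correlations -0.17 to 0.04), so replicate numbers were not taken as pairs.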

Additional observations from a re-analysis of the deposited data

Results flagged for a closer look

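For 6 genes the KO effect differed between groups of mice by a test of the difference itself, edgeR's quasi-likelihood interaction test with Benjamini-Hochberg adjustment. Between the H and BH lines at 10 weeks, the log2 difference of the KO effects, BH minus H, was 1.34 for Plg, 2.28 for Serpinf2, 2 for Apoh and 2.41 for Vtn. All 3 H-KO libraries were below all H-WT libraries for these genes, while BH-KO replicate 1 lay among or above the BH-WT libraries. Apoh passed in 20 of 20 alternatives and Plg in 17, but Vtn in 11 and Serpinf2 in 8. Between the BH-HF and BH groups, the difference of the KO effects, BH-HF minus BH, was 1.68 for F3 and 0.96 for Hgfac. The WT levels differed too: mean F3 was 14.4 CPM in BH-WT and 7.79 in BH-HF-WT, and mean Hgfac 283 and 199.8. In KO, mean F3 was 4.9 CPM in BH-KO and 8.36 in BH-HF-KO, and mean Hgfac 126 and 173. The 3 BH-KO libraries of both genes were below BH-WT, and those labelled BH-HF-KO overlapped BH-HF-WT. F3 passed in 11 of 20 alternatives and Hgfac in 19, the exception being without BH-KO replicate 3.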

How the results depend on the processing

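Counts below are genes past the threshold, first of the 34 coagulation genes, then of all genes. With DESeq2, 11 coagulation genes and 4249 of all genes passed in BH-KO. Between BH-WT and H-WT 1 and 101 passed, and between BH-HF-WT and BH-WT 2 and 1495. For the interactions these were 6 and 1394 for BH minus H, and 3 and 1315 for BH-HF minus BH. With limma-voom, 15 coagulation genes and 4186 of all genes passed in BH-KO, and 0 and 12 between BH-WT and H-WT. With the compared groups fitted alone, which leaves fewer samples for the spread, 2 coagulation genes and 1096 of all genes passed in BH-KO. There were 2 and 498 for BH minus H, 2 and 431 for BH-HF minus BH, and 2 and 839 between BH-HF-WT and BH-WT. Without a filter, 2 and 516 passed for BH minus H, and 1 and 35 between BH-WT and H-WT. Upper-quartile scaling gave 2 coagulation genes and 995 of all genes between BH-HF-WT and BH-WT. It shifted the all-gene median (log2) by 0.15 in H-KO and 0.11 in BH-KO. Of all genes, the higher and lower calls for BH minus H were then 427 and 395 (525 and 321 with TMM). For BH-HF minus BH they were 430 and 549 (481 and 370). A replicate block gave 14 genes between BH-WT and H-WT, against 23 with no block, and no other count moved by over 1.5 times. Leaving out 1 library of the groups compared, the counts ranged from 18 to 20 and from 3787 to 4284 in H-KO, 3 to 21 and 2330 to 5916 in BH-KO, 0 to 0 and 0 to 1 in BH-HF-KO, 1 to 9 and 344 to 1247 for BH minus H, 0 to 17 and 353 to 3046 for BH-HF minus BH, 0 to 0 and 7 to 18 between BH-WT and H-WT, and 0 to 1 and 225 to 1014 between BH-HF-WT and BH-WT. The highest counts of the BH-KO comparison and of both interactions were those without BH-KO replicate 1. Without that library, 1 and 57 passed between BH-WT and H-WT and 3 and 1778 between BH-HF-WT and BH-WT, an alternative chosen after seeing the data, and the BH minus H difference of Hrg turned from 1.73 to -1.09 (it was 2.26 at the highest, without BH-KO replicate 3). Except where a library or setting is named beside a result, the cause was not tested. Low counts limit Plat, Plau, Thbd, Plaur and F13a1.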
